A study of Arabidopsis thaliana with 6 samples.

Results

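The genes described here are 10 flavonoid and anthocyanin genes of *Arabidopsis thaliana*, taken by their locus identifiers from tables that list 33557 genes for roots of *CEPDL2ox* and WT plants. They comprise the enzyme genes *CHS* (AT5G13930), *CHI* (AT3G55120), *F3H* (AT3G51240), *TT7* (AT5G07990), *FLS1* (AT5G08640), *DFR* (AT5G42800) and *LDOX* (AT4G22880), and the transcription factor genes *MYB12* (AT2G47460), *MYB75* (AT1G56650) and *TT8* (AT4G09820). *CEPDL2ox* plants carry the *CEPDL2* coding sequence behind the cauliflower mosaic virus 35S promoter, which is active in most tissues of the plant, and WT plants are of the Col accession. Which transgenic line the libraries came from is not given in the sample labels. RNA came from roots at 10 days, with 10 mM nitrate as the nitrogen source, and each genotype had 3 replicates. Nothing in the labels says whether replicates came from separate cultures, so the p-values measure the spread between these libraries only.

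Flavonoids are made from phenylalanine. The general phenylpropanoid enzymes phenylalanine ammonia-lyase (PAL), cinnamate 4-hydroxylase (C4H) and 4-coumarate:CoA ligase (4CL) supply coumaroyl-CoA, from which chalcone synthase and chalcone isomerase build the flavonoid skeleton. The intermediates then go either to flavonols, through flavonol synthase, or to anthocyanins, through dihydroflavonol 4-reductase and leucoanthocyanidin dioxygenase. In Arabidopsis, *MYB12* activates the early, flavonol-making genes in roots, whereas *MYB75* and *TT8* act with the WD40 protein TTG1 on the late, anthocyanin-making genes. Flavonols in roots are known for their effects on auxin transport and reactive oxygen species, and anthocyanins accumulate in many plants when nitrogen is scarce.

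The genes turned out to fall apart into an early set, a regulator and a late set. The early set was lower in *CEPDL2ox* roots, the regulator had a small difference, and the late set was at or near 0 FPKM. FPKM is a count of fragments scaled to transcript length and to the number of mapped reads. *CHS*, *CHI* and *FLS1* had between 39.1% and 45.5% of their WT level. *F3H* and *TT7* were lower by a smaller margin, *MYB12* did not pass the test, and *DFR*, *LDOX*, *MYB75* and *TT8* were listed at 0 in every *CEPDL2ox* library.

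A short DNA stretch recurred before the start codons of several early genes. Because *MYB12* and its relatives bind sites of this kind, the 300 bases before the start codon were searched on both strands for the letters ACCTACC, known as a MYB recognition element. Matches in *UGT89C1* and *UGT78D3* and a further match in *4CL3* are not shown. The stretches shown come from pathway genes that were lower in *CEPDL2ox* roots and, for *PAL1* and *C4H*, from genes that were not. Each is 30 bases long, is read 5′ to 3′ on the strand of the gene and comes from the RefSeq TAIR10.1 assembly. The capitals mark the match, which in *F3H* lies on the opposite strand and so reads as its reverse complement.
*CHS*, chr5:4488607-4488636, plus strand: ccgtccatctaACCTACCacactctcatct
*CHI*, chr3:20431498-20431527, minus strand: taactattgctACCTACCcttctctcttct
*F3H*, chr3:19025255-19025284, plus strand: agtagtaccgtGGTAGGTagctagcgacct
*CHIL*, chr5:1563337-1563366, plus strand: aaaattatgttACCTACCaccagtccctgg
*UGT78D1*, chr1:10814774-10814803, plus strand: cttcaagtggtACCTACCactgtccagagc
*4CL3*, chr1:24171685-24171714, minus strand: ccattccctctACCTACCccaatttcttct
*PAL1*, chr2:15560404-15560433, minus strand: tctatacgcttACCTACCaacaaacactac
*C4H*, chr2:12995948-12995977, minus strand: ggtctttctttACCTACCaccatcaacaac
In TAIR10.1 each of these genes except *4CL3* begins upstream of its stretch, so the letters lie inside the annotated gene, before the start codon. By the TAIR10 positions the stretches of *CHS*, *CHI*, *PAL1* and *C4H* lie upstream of the gene.

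The overexpressed gene separated the genotypes as labelled. *CEPDL2* (AT3G62960), which encodes a glutaredoxin-like polypeptide, had 7948, 8838 and 8337 FPKM in *CEPDL2ox* libraries, against 3.27, 5.78 and 9.45 FPKM in WT libraries. The depth implied by the smallest FPKM steps lay between 5139000 and 5523000 reads in *CEPDL2ox* libraries and between 5888000 and 6274000 reads in WT libraries. Each of 10 root marker genes was above 0 in each library, with summed levels of 351 to 387 FPKM in *CEPDL2ox* libraries and 320 to 355 FPKM in WT libraries. Of these 10, 2 passed the adjusted p and were higher, which 3.71% of all genes tested did. They were the root hair genes *RHD6* (log2 difference 0.73, limma adjusted p = 0.034) and *EXP7* (0.44, limma adjusted p = 0.027). Another root hair gene of the 10, *COBL9*, did not pass (0.09, limma adjusted p = 0.62). The part of root cell types in the flavonoid results was not tested. WT replicate 1 stood apart from the other libraries. It had the highest value of each of 20 photosynthesis genes, with a summed level of 5398 FPKM, against 368 to 749 FPKM in *CEPDL2ox* libraries and 731 to 902 FPKM in the other WT libraries. It was also the single library in which all 12 leaf and stomata markers were above 0. For pathway genes that passed the adjusted p, changes without WT replicate 1 are given beside the gene.

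Differences were tested with limma on log2(FPKM + 1) on the 19597 genes that averaged 1 FPKM or more over the 6 libraries. Calls required an adjusted p (Benjamini-Hochberg) below 0.05 together with a log2 difference beyond 1 or -1. Of the 10 genes, 6 passed the filter on low values and 4 did not. In the limma test 3 of the 10 were called lower in *CEPDL2ox* roots, namely *CHS*, *CHI* and *FLS1*, where 0.424% of all genes tested were called lower and 1.16% called higher. With *F3H* and *TT7*, 5 passed the adjusted p alone and were lower, which 2.00% of all genes tested did. Called higher in the limma test were 0 of the 10, and 0 had an unadjusted p under 0.05 in that direction, which 11.4% of all genes tested had. The median log2 difference was -0.84 over the 6 genes that passed the filter and -0.03 over all genes tested. In whole roots, fewer cells of a type and less RNA per cell cannot be told apart.

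*CHS* encodes chalcone synthase, which makes the first committed intermediate of flavonoids. Its level was 543, 581 and 550 FPKM in *CEPDL2ox* libraries, against 1119, 1363 and 1197 FPKM in WT libraries. Each *CEPDL2ox* library was below each WT library, and the groups were separated by a gap wider than the spread within either group. The mean was 558 ± 20.2 FPKM in *CEPDL2ox* roots and 1226 ± 125 FPKM in WT roots (SD, n = 3 each), so that *CEPDL2ox* roots held 45.5% of the WT level. The log2 difference was -1.13 (SE 0.09, limma adjusted p = 0.0008). The values correspond to an estimated 4250 to 4810 reads per *CEPDL2ox* library and 9950 to 12900 reads per WT library, or fewer. In the tables the *CHS* row spans chromosome 5 of TAIR10 from 4488688 to 4495585, since it shares a locus with AT5G13940, whose own level did not exceed 0.08 FPKM.

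*CHI* encodes chalcone isomerase, which closes the ring of the chalcone. It lies on chromosome 3 from 20430114 to 20431470. Its level was 69.3, 63.5 and 61.6 FPKM in *CEPDL2ox* libraries, against 166, 184 and 148 FPKM in WT libraries. The highest *CEPDL2ox* library remained below the lowest WT library by a wide margin. Among the 10 genes *CHI* had the largest difference of those that passed the filter, with 39.1% of the WT level in *CEPDL2ox* roots and a log2 difference of -1.34 (SE 0.10, limma adjusted p = 0.0006).

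*FLS1* encodes the main flavonol synthase of Arabidopsis, which draws dihydroflavonols into flavonols. It lies on chromosome 5 from 2803957 to 2805606. Its level was 102, 90.3 and 91.1 FPKM in *CEPDL2ox* libraries, against 208, 261 and 214 FPKM in WT libraries. Again the groups did not overlap, and WT replicate 2 was the highest library for *FLS1*, as it was for *CHS* and *CHI*. *CEPDL2ox* roots held 41.5% of the WT level, and the log2 difference was -1.26 (SE 0.10, limma adjusted p = 0.0008). Without WT replicate 1 the log2 difference was -1.19 for *CHS*, -1.34 for *CHI* and -1.32 for *FLS1*, so these differences were as large when that library was left out. The call of these 3 genes was kept in 15 of 15 alternatives.

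*F3H* and *TT7*, which act between *CHI* and *FLS1*, were lower by less. *F3H* encodes flavanone 3-hydroxylase, which forms dihydroflavonols, and lies on chromosome 3 from 19025110 to 19026872. Its level was 185, 181 and 180 FPKM in *CEPDL2ox* libraries, against 246, 265 and 267 FPKM in WT libraries. The *CEPDL2ox* libraries were close together, and all lay below the WT libraries. *CEPDL2ox* roots held 70.2% of the WT level, with a log2 difference of -0.51 (SE 0.07, limma adjusted p = 0.0058). The neighbour AT3G51238 overlaps *F3H* on the opposite strand and did not exceed 0.69 FPKM. The library kit does not mark strand, so reads from the overlap cannot be told apart.

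*TT7* encodes flavonoid 3′-hydroxylase, which adds the hydroxyl group that separates quercetin from kaempferol. It lies on chromosome 5 from 2560394 to 2563109. Its level was 24.6, 23.7 and 27.8 FPKM in *CEPDL2ox* libraries, against 39.2, 33.3 and 41.4 FPKM in WT libraries. The groups did not overlap, but WT replicate 2 came near the *CEPDL2ox* libraries. The log2 difference was -0.56 (SE 0.11, limma adjusted p = 0.028) and *CEPDL2ox* roots held 66.9% of the WT level. The *TT7* difference did not pass without WT replicate 1 (limma adjusted p = 0.097), and it failed to pass in 5 of 15 alternatives, with adjusted p between 0.017 and 0.11 over all of them.

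*MYB12* was the only regulator among the 10 genes with more than trace expression. It lies on chromosome 2 from 19476337 to 19479478. Its level was 30.1, 32.5 and 32.6 FPKM in *CEPDL2ox* libraries, against 33.2, 34.3 and 43.0 FPKM in WT libraries. The *CEPDL2ox* libraries all lay below the WT libraries, but by a narrow margin, and WT replicate 3 was well above the rest. The log2 difference was -0.20 with a 95% interval of -0.46 to 0.06, and it did not pass the test (limma adjusted p = 0.32). That interval does not reach the difference of *CHS*, *CHI* or *FLS1*. The part of *MYB12* in the differences of these genes was not tested. The groups did not overlap, with *CEPDL2ox* lower, for each of the 6 genes that passed the filter, and for 16.1% of all genes tested. An exact two-sided permutation test gives p = 0.10 for each of these 6 genes, the smallest that 3 libraries against 3 allow.

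**Figure D1:**
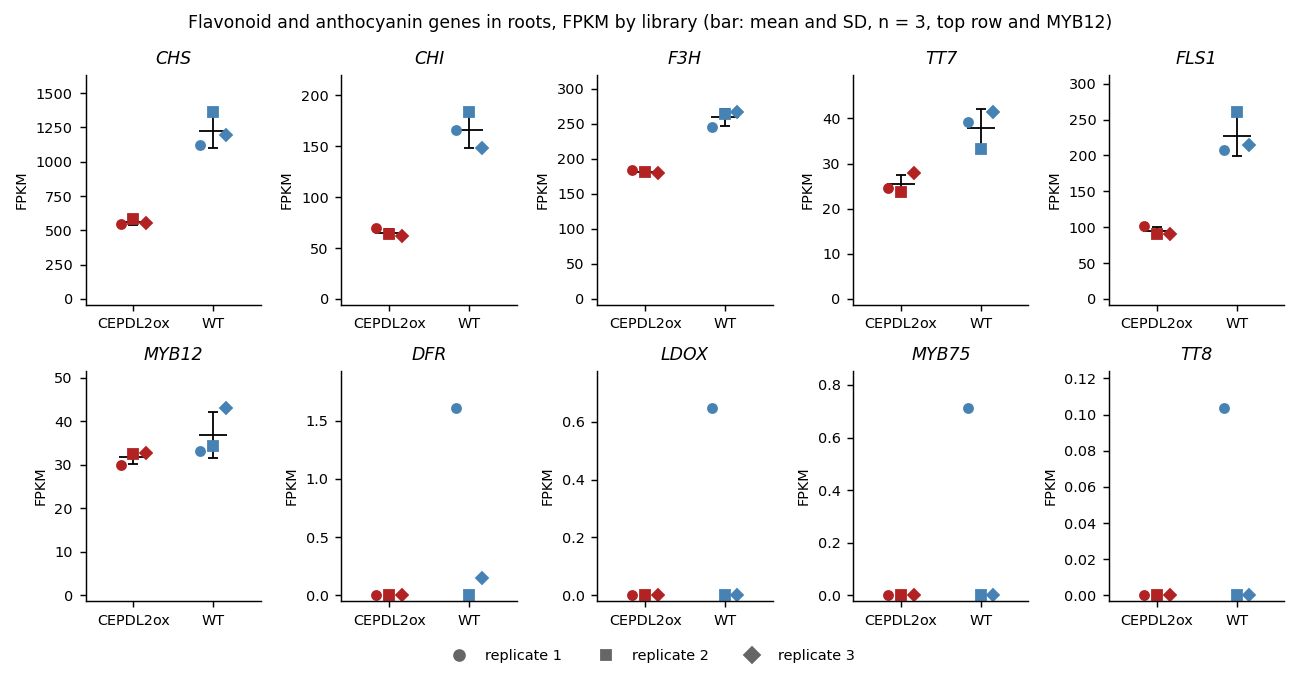
FPKM (y axis, each panel on its own scale) of the 10 genes in each library, with *CEPDL2ox* in red on the left and WT in blue on the right of each panel. Marker shape gives the replicate, and bars give mean and SD (n = 3) for the 6 genes that passed the filter. *CHS* lies between 543 and 581 FPKM in *CEPDL2ox* roots, below all WT libraries, and *DFR*, *LDOX*, *MYB75* and *TT8* are nearly confined to WT replicate 1.

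The late genes were barely present. *DFR* encodes dihydroflavonol 4-reductase, the first enzyme of the anthocyanin branch, and lies on chromosome 5 from 17164141 to 17165918. It was listed at 0 in the 3 *CEPDL2ox* libraries, against 1.61, 0 and 0.15 FPKM in WT replicates 1, 2 and 3. Thus it was above trace level in WT replicate 1 only, where the value corresponds to an estimated 12.5 reads or fewer.

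*LDOX*, *MYB75* and *TT8* were detected in no library other than WT replicate 1. *LDOX* encodes leucoanthocyanidin dioxygenase, which forms the coloured anthocyanidins, and had 0.65 FPKM there, an estimated 4.58 reads or fewer. *MYB75*, also known as *PAP1*, encodes the MYB activator of anthocyanin genes and had 0.71 FPKM there, an estimated 3.82 reads or fewer. *TT8* encodes a basic helix-loop-helix partner of that activator and had 0.10 FPKM there, or about 1 read. None of these 4 genes averaged 1 FPKM, and none was tested.

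WT replicate 1 also had the highest sum of the aerial markers. The 12 leaf and stomata markers summed to 4.59, 5.30 and 6.67 FPKM in *CEPDL2ox* libraries, against 18.6, 1.84 and 2.63 FPKM in WT replicates 1, 2 and 3. Of the 12 markers, 9 were highest in WT replicate 1, and 5 of these were at 0 in every other library. *EPFL9*, *MYB60* and *FAMA* were highest in a *CEPDL2ox* library. The sums in *CEPDL2ox* libraries exceeded that of WT replicate 3, and *EPFL9* alone gave 3.49, 3.50 and 6.01 FPKM of them. The photosynthesis genes summed to 614, 749 and 368 FPKM in *CEPDL2ox* libraries, against 731 FPKM in WT replicate 3. *PAL3* and *5MAT*, an anthocyanin malonyltransferase gene, had 0.69 and 0.74 FPKM in WT replicate 1 and 0 in the other 5 libraries. Other low genes of anthocyanin decoration and transport differed from this. *UGT75C1* had 0.12, 0.25 and 0.67 FPKM in *CEPDL2ox* libraries, and *UGT79B1* and *3AT1* were above 0 in *CEPDL2ox* replicates 1 and 3. *3AT2* was above 0 in WT replicate 3 only, and *TT12* in no library. The activator gene *TT2* had 0.44, 0.21 and 0.44 FPKM in WT replicates 1, 2 and 3 and 0 in each *CEPDL2ox* library. These *TT2* values correspond to an estimated 1.23 to 2.45 reads per WT library, and *TT2* was not tested. The part of aerial RNA in the values of *DFR*, *LDOX*, *MYB75* and *TT8* was not tested. Without WT replicate 1, the highest value of these 4 genes in any library was that of *DFR* in WT replicate 3.

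**Figure D2:**
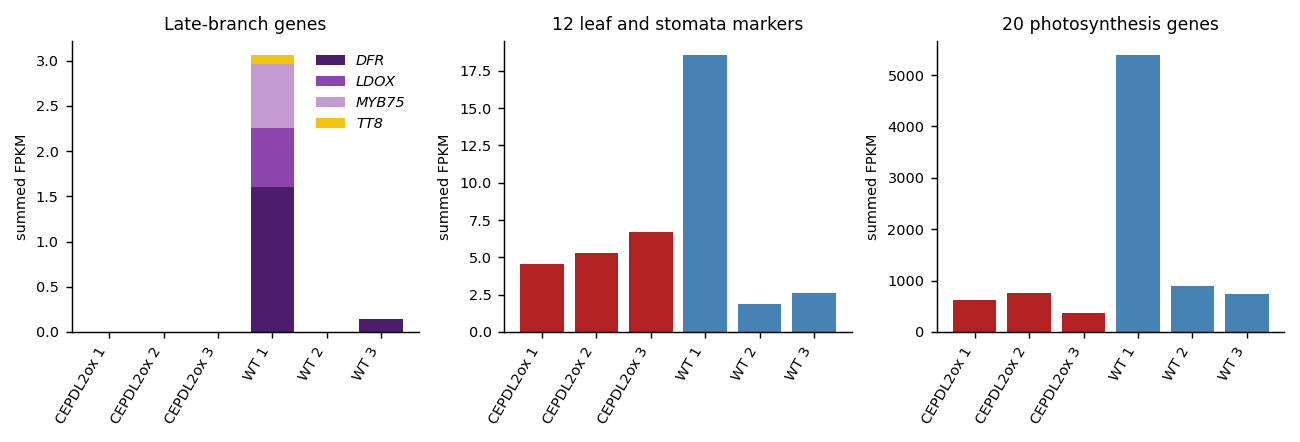
Summed FPKM (y axes) in each library (x axes, *CEPDL2ox* left of WT) of *DFR*, *LDOX*, *MYB75* and *TT8*, stacked, of 12 leaf and stomata markers, and of 20 photosynthesis genes. All 3 sums are highest in WT replicate 1, where the photosynthesis genes reach 5398 FPKM.

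Among 60 other genes of the pathway, 41 passed the filter on low values. Of these, 3 were called lower in the limma test and 0 were called higher. Of all genes tested, 0.424% were called lower and 1.16% higher. By the unadjusted p, 3 of the 41 were higher, where 11.4% of all genes tested were. By the adjusted p alone, 10 were lower and 1 was higher, where 2.00% of all genes tested were lower and 3.71% were higher. The count of lower genes by the adjusted p was 6 without *CEPDL2ox* replicate 1 and 7 without WT replicate 1. The median log2 difference was -0.10 over these 41 genes. Of the 10 lower genes, 5 were flavonoid decoration genes, and the general genes that feed the pathway showed both directions.

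Among the general genes, before the flavonoid branch point, only *4CL3* was called. *4CL3* encodes the 4-coumarate:CoA ligase isoform associated with flavonoids, and had 9.82, 8.47 and 8.85 FPKM in *CEPDL2ox* libraries, against 20.3, 23.9 and 18.6 FPKM in WT libraries. The groups did not overlap, and the log2 difference was -1.12 (SE 0.12, limma adjusted p = 0.0026). The isoforms associated with lignin did not pass, with log2 differences of 0.22 for *4CL1* and 0.09 for *4CL2*.

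The other general genes differed little or in opposite directions. *C4H*, the most highly expressed of them, had 422, 421 and 413 FPKM in *CEPDL2ox* libraries, against 377, 432 and 361 FPKM in WT libraries. These values overlapped, and the log2 difference of *C4H* was 0.11 (limma adjusted p = 0.48). *PAL1* had a log2 difference of 0.02. *PAL2* was lower by a log2 difference of -0.54 (limma adjusted p = 0.027) and *PAL4* was higher by 0.46 (limma adjusted p = 0.034). Neither was stable: *PAL2* did not pass in 6 and *PAL4* in 8 of 15 alternatives, among them the fit without WT replicate 1 (adjusted p = 0.093 and 0.079). Over the alternatives the adjusted p ranged from 0.017 to 0.10 for *PAL2* and from 0.028 to 0.11 for *PAL4*.

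Beside the core enzymes, *CHIL* encodes a chalcone isomerase-like protein that has no isomerase activity of its own and assists chalcone synthase. It had 192, 196 and 187 FPKM in *CEPDL2ox* libraries, against 331, 327 and 331 FPKM in WT libraries. Within each genotype the libraries were close together, and the log2 difference was -0.78 (SE 0.06, limma adjusted p = 0.0008). Of the *FLS* relatives, *FLS5* was expressed at the level of *FLS1* in WT roots. *FLS5* had 225, 231 and 202 FPKM in *CEPDL2ox* libraries, against 217, 245 and 233 FPKM in WT libraries. These libraries overlapped, and the log2 difference of *FLS5* was -0.08 (95% interval -0.27 to 0.11, limma adjusted p = 0.60). *FLS2*, *FLS3* and *FLS4* did not pass either, and *FLS4* had the largest of their log2 differences, 0.30.

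Flavonoid decoration, a group that includes the sinapate gene *UGT84A2*, had 5 of 6 tested genes lower by the adjusted p. Of all genes tested, 2.00% were. *UGT78D1* encodes the flavonol 3-O-rhamnosyltransferase and had 5.33, 5.01 and 6.92 FPKM in *CEPDL2ox* libraries, against 15.1, 14.2 and 11.7 FPKM in WT libraries. It was the one gene of this group to be called, with 42.1% of the WT level in *CEPDL2ox* roots and a log2 difference of -1.12 (SE 0.15, limma adjusted p = 0.0071). *UGT78D2*, a flavonoid 3-O-glucosyltransferase gene, was lower by -0.58 (limma adjusted p = 0.0061) and *UGT89C1*, a flavonol 7-O-rhamnosyltransferase gene, by -0.63 (limma adjusted p = 0.011). *RHM1*, whose product makes UDP-rhamnose, was lower by -0.75 (limma adjusted p = 0.0081), and its adjusted p was 0.053 without *CEPDL2ox* replicate 1.

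The remaining decoration genes were less clear. *UGT84A2*, a sinapate glucosyltransferase gene, was lower by -0.49 (limma adjusted p = 0.032) but did not pass in 7 of 15 alternatives, over which the adjusted p ranged from 0.026 to 0.10, and which include the fit without WT replicate 1 (0.096). *OMT1*, an O-methyltransferase gene that serves flavonols as well as lignin precursors, had overlapping groups and a log2 difference of -0.066 (limma adjusted p = 0.79). *UGT89C1* overlaps AT1G06002 and *RHM1* shares a locus with AT1G78580, so part of their reads may belong to the neighbour.

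Among genes of anthocyanin decoration and transport, 6 of 12 passed the filter. Of these, 2 were lower by the adjusted p, where 2.00% of all genes tested were. *TT19* encodes a glutathione S-transferase needed for anthocyanin to reach the vacuole. It had 1.26, 1.89 and 0.34 FPKM in *CEPDL2ox* libraries, against 5.28, 5.26 and 4.72 FPKM in WT libraries, so that unlike *DFR* it was present in all WT replicates. The *TT19* groups did not overlap, and the log2 difference was -1.56 (SE 0.29, limma adjusted p = 0.023). It rests on an estimated 1.56 to 9.34 reads per *CEPDL2ox* library and 24.9 to 29.5 reads per WT library. The *TT19* estimates move in steps of about 1.56, so the reads themselves were fewer.

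The *TT19* call did not hold in each alternative. It was lost without *CEPDL2ox* replicate 1 (limma adjusted p = 0.076) and without WT replicate 1, 2 or 3 (0.078, 0.082 and 0.066), while the range over the alternatives was 0.016 to 0.082. With a pseudocount of 0.1 the log2 difference was -2.29. *TT19* overlaps the opposite-strand gene AT5G17230 in TAIR10.1, which reached up to 33.6 FPKM. *DTX35*, which encodes a flavonoid transporter of the MATE family, was lower by a log2 difference of -0.63 (SE 0.08, limma adjusted p = 0.0054). *SCPL10* did not pass, with a log2 difference of 0.11.

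Like *MYB12*, the other regulators did not pass the test. Of 14 other activators, 6 passed the filter and 5 were at 0 in each library. *HY5*, a light-signalling bZIP factor that acts upstream of *MYB12*, had 78.5, 96.1 and 75.8 FPKM in *CEPDL2ox* libraries, against 95.2, 87.9 and 99.4 FPKM in WT libraries. The groups overlapped, and the log2 difference of *HY5* was -0.18 (limma adjusted p = 0.35). Its homologue *HYH* had a log2 difference of 0.17 and the WRKY gene *TTG2* of -0.32. *MYB11* and *MYB111*, the closest relatives of *MYB12*, did not pass the filter. *MYB11* had 0.87, 1.04 and 1.12 FPKM in *CEPDL2ox* libraries, against 0.16, 0.76 and 0.81 FPKM in WT libraries, and *MYB111* did not exceed 0.46 FPKM in any library.

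All 11 repressors passed the filter and none passed the test. In the limma test 0 were called, where 0.424% of all genes tested were called lower and 1.16% higher. By the unadjusted p 2 of the 11 were lower and 1 was higher, where 11.8% of all genes tested were lower and 11.4% higher. *LBD38*, a nitrate-responsive repressor of anthocyanin genes, had 100.2, 116 and 91.4 FPKM in *CEPDL2ox* libraries, against 78.4, 63.5 and 80.3 FPKM in WT libraries. The groups did not overlap, but the log2 difference of 0.47 did not pass (limma adjusted p = 0.069). Its relative *LBD37* had a log2 difference of 0.23 (limma adjusted p = 0.24). *MYBL2*, an R3-MYB repressor of the anthocyanin branch, had a log2 difference of -0.71 (SE 0.27, limma adjusted p = 0.17). *KFB50*, an F-box gene whose product targets phenylalanine ammonia-lyase for breakdown, had 11.6, 9.48 and 6.68 FPKM in *CEPDL2ox* libraries, against 15.0, 16.3 and 13.7 FPKM in WT libraries. These groups did not overlap, and the log2 difference of -0.67 did not pass (limma adjusted p = 0.077). *KFB50* shares a locus with AT3G59950, which reached up to 42.4 FPKM, so part of its reads may belong to the neighbour.

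**Figure D3:**
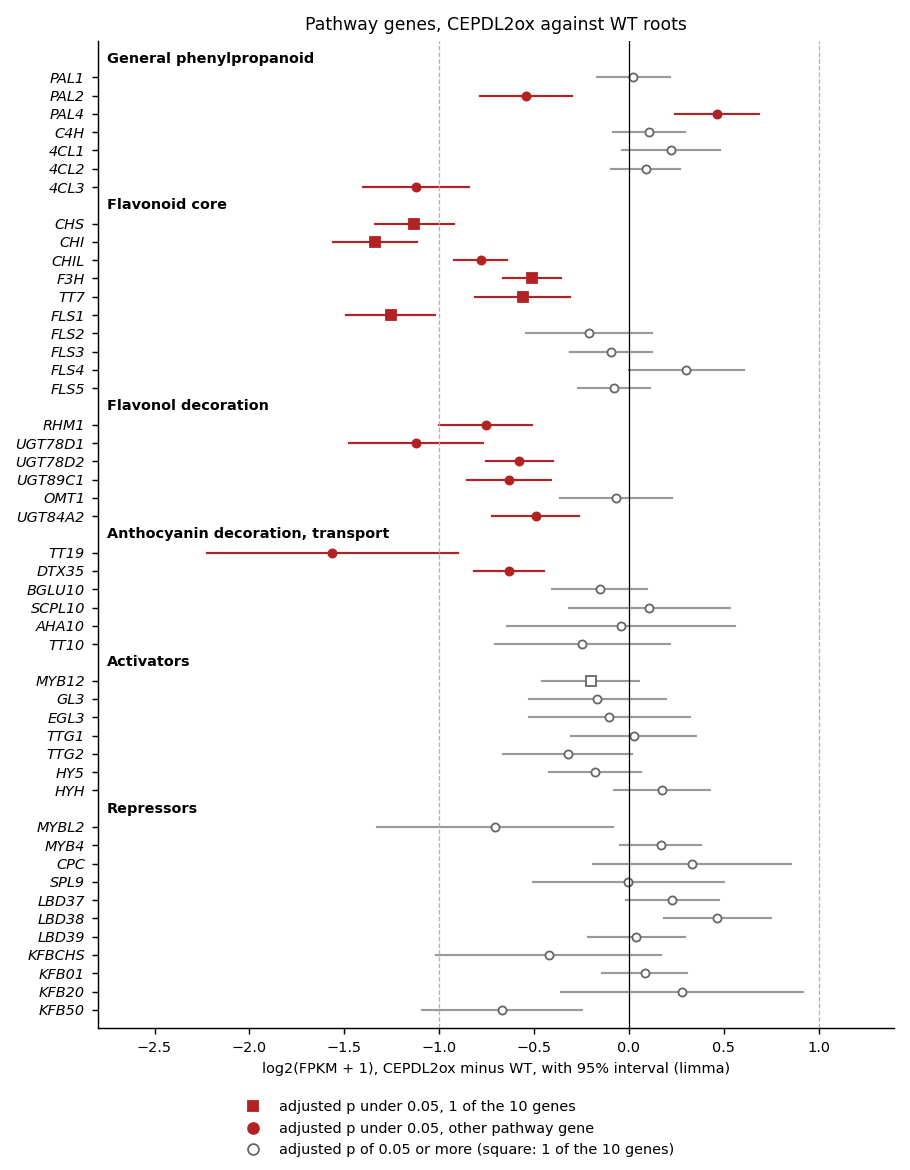
Log2 difference in FPKM + 1 between *CEPDL2ox* and WT roots (x axis, negative where lower in *CEPDL2ox*) with its 95% interval from limma, for the 47 pathway genes that passed the filter, in pathway order. Red points passed an adjusted p of 0.05 and squares are among the 10 genes. The red points lie mostly between *4CL3* and the flavonol decoration genes, and no regulator is red.

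Ratios within a library do not depend on how libraries were scaled, and 8 of them were computed for genes picked after their values had been seen. They restate the values above and are given as a description, with no test. The ratio of *CHS* to *PAL1* was 1.67 ± 0.14 in *CEPDL2ox* roots and 3.71 ± 0.17 in WT roots (SD, n = 3 each). The ratio of *FLS1* to *F3H* was 0.519 ± 0.027 in *CEPDL2ox* roots and 0.877 ± 0.096 in WT roots. The ratio of *FLS1* to *FLS5* was 0.431 ± 0.035 in *CEPDL2ox* roots and 0.980 ± 0.075 in WT roots. The *CHS* to *PAL1*, *FLS1* to *F3H* and *FLS1* to *FLS5* ratios were each lower in *CEPDL2ox* libraries than in any WT library.

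The ratio of *CHS* to *MYB12* was 17.6 ± 0.66 in *CEPDL2ox* roots and 33.8 ± 5.94 in WT roots. The ratio of *CHS* to *4CL3* was 62.0 ± 6.64 in *CEPDL2ox* roots and 58.8 ± 4.95 in WT roots, and its groups overlapped.

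The letters ACCTACC shown above occurred in the 300-base window of 3 of the 10 genes, *CHS*, *CHI* and *F3H*, and of 1.33% of 27443 protein-coding genes. Of the 15 pathway genes that were lower by the adjusted p, 7 held the letters. These were *UGT89C1* and the genes whose stretches are shown, other than *PAL1* and *C4H*. Of the 32 other tested pathway genes, 2 held them, *PAL1* and *C4H*. Of the 23 pathway genes below the filter, 1 held them, *UGT78D3*. *FLS1* and *TT7* had no match in this window. In *CHS*, *CHIL* and *F3H* the match began within 1 base of the same distance from the start codon, at -144, -144 and -143, and in *CHI* it began at -101.

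A second set of letters, ACGT, is the core that bZIP factors such as HY5 recognize. It occurred in the windows of 7 of the 10 genes, but also in 45.4% of all protein-coding genes. In *CHS* it lay at -173, upstream of the ACCTACC match. The longer G-box, CACGTG, which contains ACGT, occurred in *CHI*, *DFR*, *MYB12* and *MYB75* and in 6.28% of all protein-coding genes. The AC element ACCAACC occurred in *DFR* and *TT8* and in 3.50% of all protein-coding genes. These matches describe the letters of the windows, and binding was not measured.

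**Figure D4:**
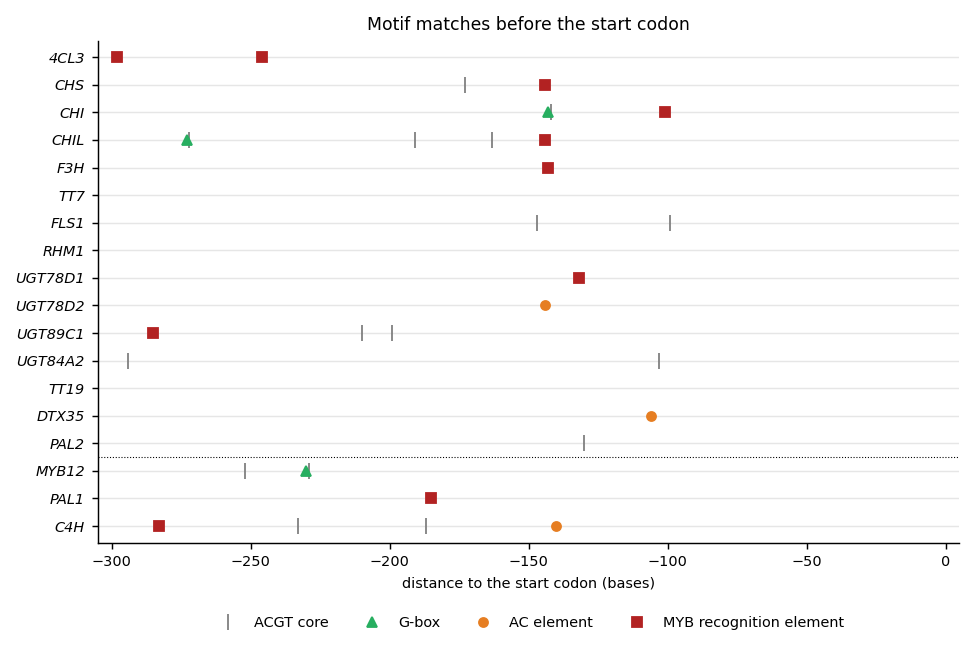
Position of motif matches relative to the start codon (x axis, in bases) for 15 pathway genes that were lower in *CEPDL2ox* roots by the adjusted p (above the dotted line) and for *MYB12*, *PAL1* and *C4H* (below it). Squares mark the MYB recognition element, which lies at -144, -144 and -143 in *CHS*, *CHIL* and *F3H*.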

How the data were processed

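Root RNA from 3 *CEPDL2ox* and 3 WT samples was sequenced as single-end 75-bp reads, which the authors mapped to TAIR10 in illumina's BaseSpace environment. The authors deposited FPKM per gene, with no read counts, in 1 table per library. The quantifier is not given in the sources used here. Samples were grouped by their labels.

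The limma package 3.58.1 (R 4.3.3) was fitted, with an intensity trend in eBayes, to log2(FPKM + 1) of the 19597 genes whose mean reached 1 FPKM. This scale understates differences of genes near 1 FPKM. P-values were adjusted over all genes tested. Reads behind a value were estimated from the smallest FPKM steps, taking 200 bases off each transcript length in TAIR10.1. Where transcripts in TAIR10.1 are longer than those behind the FPKM, the estimate is too high, as for *TT19* and *DFR*. *CHS* also starts later in TAIR10 than in TAIR10.1. The 10 genes, the other pathway genes and the markers were chosen with earlier results of these data known. Named were the 10 genes, every other pathway gene with an adjusted p under 0.05, and in each group of the pathway the gene with the largest difference in each direction and the most highly expressed gene. *PAL1*, *PAL3*, *4CL1*, *4CL2*, *5MAT*, *UGT75C1*, *UGT79B1*, *3AT1*, *3AT2*, *TT12*, *TT2*, *FLS2*, *FLS3*, *FLS5*, *MYB11*, *MYB111* and *KFB50*, and the single markers, were named after their values were seen. *UGT78D3* was named for its match to ACCTACC. Alternatives were a pseudocount of 0.1, no filter, a filter at 5 FPKM, 3 rescalings, no trend, the replicate block, the threshold on mean FPKM, and leaving out each library. Gene positions follow the tables (TAIR10), and windows before start codons come from TAIR10.1, where 32812 of 32813 matched genes overlapped the tables' positions. Other steps used Python 3.11.15, pandas 2.3.3 and scipy 1.17.1.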

Additional observations from a re-analysis of the deposited data

How the results depend on the processing

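Of the 10 genes, 3 were called lower and 0 higher in all 15 alternatives, and of the other pathway genes 2 to 3 were called lower and 0 higher when single libraries were left out. By the adjusted p alone, 10 other pathway genes were lower, and 6 to 9 when single libraries were left out (6 without *CEPDL2ox* replicate 1, 7 without WT replicate 1 or 2). With a replicate block, 3 of the 10 genes and 3 other pathway genes were called lower, while *PAL4* (adjusted p = 0.052) and *UGT84A2* (0.064) no longer passed. The values showed no pairing by replicate number, since deviations of same-numbered libraries correlated at -0.03, 0.02 and 0.0006. Whether same-numbered samples were grown or prepared together is not given in the labels. Scaling to the same summed FPKM moved the median log2 difference of all genes to -0.11, from -0.03, and the direction of *CHS*, *CHI*, *F3H*, *TT7*, *FLS1* and *MYB12* was the same in this and the other alternatives. With that scaling 125 of all genes were called lower instead of 83, and 711 instead of 392 passed the adjusted p and were lower. The count by adjusted p was 258 without a filter, 211 without a trend and 99 to 176 when single libraries were left out, and the count called lower was 49 to 77 with single libraries left out. *OMT1* changed sign when single libraries were left out (-0.15 to 0.077, the highest without WT replicate 2). *TT19* could not be tested with the filter at 5 FPKM. With *DFR* at an estimated 12.5 reads at most, the depth limits what can be said of the late genes.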
